A study of Homo sapiens with 4 samples.

Results

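The genes described here are 30 transcripts that the tumour suppressor p53 is known to switch on, read in T24, a cell line established from a human bladder cancer. They were taken by name, by a rule that uses no measured value, but the list was drawn up with earlier results of these data known. All 30 names were found among the 60623 genes of the deposited table. Of the 4 RNA sequencing libraries, 2 came from T24 cells given a scramble control, whose sequence the labels do not give, and 2 from T24 cells made to overexpress miR-146a-5p, a small RNA that represses transcripts with a matching site. The study's description says that a mimic was transfected, and no other agent, dose or time is named. Whether replicate libraries were grown as separate cultures is not stated in the labels, so the p-values reflect spread among libraries that may be technical only.

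p53 is a transcription factor that is held low by the ubiquitin ligase MDM2 and accumulates when DNA is damaged or cells are stressed. It binds a palindromic DNA element near its target genes and raises transcripts that halt the cell cycle, repair DNA, adjust metabolism or start apoptosis, and several of its targets, MDM2 and PPM1D among them, feed back to switch it off.

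The scramble libraries differed more from each other (correlation of log2 CPM 0.925) than the miR-146a-5p libraries did (0.989), so the genes are also described against each scramble library alone. None of the p53 target genes passed the test between groups. Of the 30 genes, 29 passed the filter on low counts and could be tested, and EDA2R, a receptor of the tumour necrosis factor family, had 0 counts in all 4 libraries, which allows at most 0.148 CPM (counts scaled to a library total of 1000000), from 3 counts in the shallowest library and for counting error only. edgeR's quasi-likelihood test, with Benjamini-Hochberg adjustment over all 14810 tested genes, called 0 of the 29, and DESeq2 called 0 as well. Over all genes the share called was 0% of 14810 by edgeR and 0.324% of the 16044 with an adjusted p by DESeq2. At an unadjusted p under 0.05 edgeR had 0 of the 29, against 3.71% of all tested genes, and DESeq2 had 0. In such RNA from whole cultures, fewer cells using a gene and less RNA per cell cannot be told apart. The smallest unadjusted p of the 29 was 0.097 in edgeR's fit across all genes, for AEN. The median log2 fold change of the 29 was 0.09, beside -0.0014 over all tested genes. The fitted change was positive for 17 and negative for 12.

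**Figure D1:**
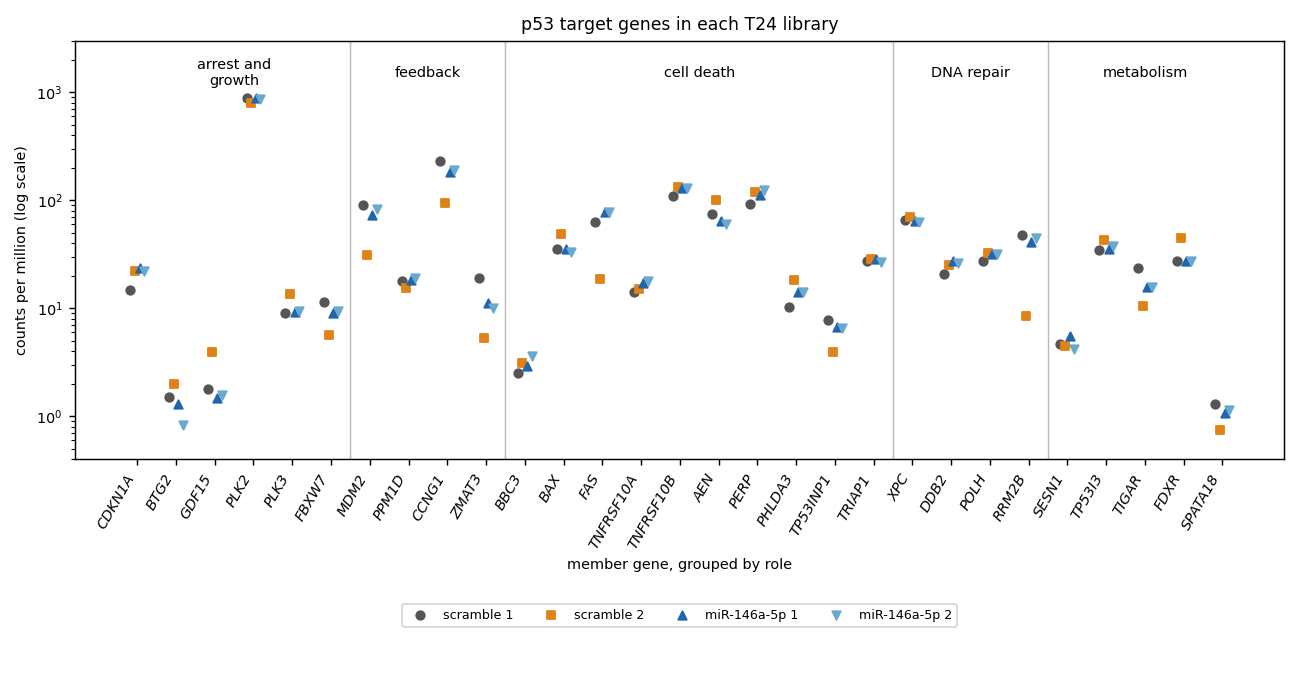
CPM of each of the 29 tested p53 target genes (vertical axis, log scale) in the 4 libraries, with genes grouped by role along the horizontal axis and one symbol per library. The triangles of the 2 miR-146a-5p libraries sit close together, and the squares of scramble library 2 stand apart for genes such as RRM2B, FAS, ZMAT3 and MDM2.

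In 5 of the 29 genes (17.2%) both miR-146a-5p libraries lay above both scramble libraries, against 18% of all tested genes, and in another 5 both lay below, against 18%. Those above were CDKN1A, FAS, TNFRSF10A, DDB2 and PPM1D, and those below were BAX, GDF15, BTG2, XPC and AEN. For 14 genes both miR-146a-5p values fell between the scramble values (39% of all tested genes), and for 5 the groups overlapped in another way (24.9%). The shares above and below are near the background, and with 2 libraries against 2 an exact permutation test of 1 gene cannot go below p = 0.333.

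Total estimated counts were between 20290055 and 22774090 per library. IRAK1, a textbook target of this microRNA, stood at 498 and 716 CPM in the scramble libraries and 108 and 109 CPM with the mimic, 5.59-fold lower (DESeq2 adjusted p = 5.03e-09, edgeR adjusted p = 0.728). The 5 epithelial markers summed to 1910 and 2746 CPM in scramble, so that scramble library 2 was high, and to 1914 and 1751 CPM with the mimic, mostly from the keratins KRT8 and KRT18. Of the 4 tested, 3 had a negative and 1 a positive fitted change, and KRT19 alone had an unadjusted p under 0.05 by either tool (edgeR adjusted p = 0.970, DESeq2 adjusted p = 0.0681). KRT5 and UPK3A, markers of basal and superficial urothelium, had 0 counts in every library and CDH1 had at most 2. The 8 urothelial markers summed to 41.1 and 45.9 CPM in scramble and 29.1 and 29.6 CPM with the mimic, nearly all of it PPARG. Only 2 of the 8 passed the filter, with opposite fitted changes: PPARG had a log2 fold change of -0.60 and GATA3, at no more than 1.23 CPM, had 1.81 (edgeR adjusted p = 0.970 for each, unadjusted p under 0.05). The 17 fibroblast, leukocyte and endothelial markers, of which 3 passed the filter and 2 were at 0 in every library, summed to 4.51 and 6.06 CPM in scramble and 7.38 and 8.18 CPM with the mimic. The part of these markers in the p53 target values was not tested.

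Because miR-146a-5p acts through sites in 3' UTRs, the p53 target genes were searched for its seed match. The mature microRNA is shown with its seed, bases 2 to 8, in capitals, as RefSeq gives it.
hsa-miR-146a-5p: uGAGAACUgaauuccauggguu
Matches were sought in 1 annotated 3' UTR per gene (GENCODE release 29, GRCh38), that of its longest coding transcript, as AGTTCTCA (an 8-mer), AGTTCTC (a 7-mer pairing with bases 2 to 8) or GTTCTCA (a 7-mer pairing with bases 2 to 7 followed by A), on the transcript's strand, each gene counted once under its longest match. Of the 29 tested members, 6 carried a match (20.7%), and so did 21.0% of the 12343 tested genes with an annotated 3' UTR. The sites below are printed with the match in capitals and up to 11 bases on each side, since they are the places where the mimic could pair directly with these transcripts.
BTG2, chr1:203308483-203308490, plus strand: tctaggacaagAGTTCTCAgtcactgtgca
AEN, chr15:88630757-88630763, plus strand: cttgggggtaaAGTTCTCttccttttgtt
PHLDA3, chr1:201465152-201465158, minus strand: tttacacagtaAGTTCTCcctcctggagg
TIGAR, chr12:4354398-4354404, plus strand: gataaaagtagAGTTCTCtttaaccagct
FBXW7, chr4:152322774-152322780, minus strand: aaaaatcccttGTTCTCAgtggtgcagga
RRM2B has an 8-mer as well, and EDA2R a 7-mer. Of the 6 tested genes with a match, BTG2 and AEN had both miR-146a-5p libraries below both scramble libraries, as did 18% of all tested genes. BTG2 rests on 17 to 45 counts per library. PHLDA3, TIGAR, FBXW7 and RRM2B had both miR-146a-5p libraries between the scramble libraries, as did 39% of all tested genes. Whether the sites play a part in these values was not tested. None of the 6 passed the test.

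Among the genes that arrest or slow growth, CDKN1A encodes p21, the inhibitor of cyclin-dependent kinases and the best known p53 target. CDKN1A (ENSG00000124762) was at 14.7 and 21.95 CPM in scramble libraries 1 and 2 and at 23.6 and 22.3 CPM in miR-146a-5p libraries 1 and 2. Both miR-146a-5p values exceeded both scramble values, but scramble library 2 only by little. The log2 ratio of their mean was 0.64 against scramble library 1 and 0.06 against scramble library 2. The log2 fold change was 0.32 ± 0.28 (SE), with a 95% interval from -0.43 to 1.07 and an edgeR adjusted p of 0.970. BTG2, an antiproliferative cofactor with an 8-mer site, had 1.52 and 1.98 CPM in scramble and 1.30 and 0.838 CPM with the mimic. These rest on 34 and 45 estimated counts against 28 and 17, and the log2 fold change was -0.70 ± 0.41 (SE, interval -1.82 to 0.42). GDF15, a secreted stress cytokine, stood at 1.79 and 3.95 CPM against 1.49 and 1.58 CPM. Its log2 fold change of -0.91 ± 0.49 (SE, interval -2.23 to 0.42) was the lowest of the 29. Scramble library 2 was 2.21-fold above scramble library 1, and the log2 ratio was -0.22 against library 1 and -1.37 against library 2.

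The polo-like kinase PLK2 was by far the most abundant member. It had 883, 797, 888 and 865 CPM in the 4 libraries in the same order, and 374 to 473 TPM (the authors' measure of transcript abundance, which allows for gene length). Its interval was the narrowest, from -0.31 to 0.43 around a log2 fold change of 0.06. PLK3, a related kinase, had 9.07 and 13.5 CPM in scramble and 9.19 and 9.46 CPM with the mimic. FBXW7, the substrate receptor of a ubiquitin ligase that degrades cyclin E and MYC, had 11.4 and 5.62 CPM against 8.96 and 9.46 CPM. For both genes the miR-146a-5p values lay between those of the scramble libraries.

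Of the 4 genes that feed back on p53, 3 differed widely between the scramble libraries. MDM2, the ligase that degrades p53, had 89.8 and 31.1 CPM in scramble and 72.4 and 83.0 CPM with the mimic, a log2 fold change of 0.36 ± 0.55 (SE, interval -1.12 to 1.84, edgeR adjusted p = 0.970). CCNG1, cyclin G1, which recruits a phosphatase to MDM2, had 229 and 94.6 CPM against 182 and 191 CPM. ZMAT3, an RNA-binding regulator of splicing, had 19.1 and 5.31 CPM against 11.2 and 10.1 CPM. In those 3 both miR-146a-5p libraries lay between the scramble libraries, which differed 2.88-fold, 2.42-fold and 3.59-fold. PPM1D, the phosphatase WIP1 that turns off the damage response, was steadier, with 17.96 and 15.5 CPM in scramble and 18.1 and 19.1 CPM with the mimic.

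The genes of cell death held the highest fitted change of the 29, that of FAS, and the third lowest, that of AEN, neither past the threshold. FAS (ENSG00000026103), the death receptor for FAS ligand, had 62.8 and 18.5 CPM in scramble and 77.3 and 78.6 CPM with the mimic. Both miR-146a-5p values were above both scramble values, with a log2 ratio of 0.31 over scramble library 1 and 2.07 over scramble library 2. The log2 fold change was 0.94 ± 0.62 (SE, interval -0.74 to 2.61, edgeR adjusted p = 0.970, DESeq2 adjusted p = 1.00). AEN (ENSG00000181026), a nuclease that takes part in DNA fragmentation, had 74.5 and 100.99 CPM in scramble and 63.8 and 59.98 CPM with the mimic. Both of its miR-146a-5p values were below both scramble values, and the log2 fold change was -0.50 ± 0.24 (SE, interval -1.15 to 0.14, edgeR adjusted p = 0.970).

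The TRAIL receptors, which signal death on the cell surface, showed no wide gap between the scramble libraries. TNFRSF10A had 14.2 and 15.1 CPM in scramble and 17.2 and 17.7 CPM with the mimic, and TNFRSF10B had 109 and 132 CPM against 129 and 128 CPM. Among the mitochondrial death genes, BAX, which forms pores in the outer membrane, had 35.1 and 48.7 CPM against 35.1 and 33.2 CPM, so that its place below both scramble libraries rests on 35.09 against 35.11 CPM. BBC3, which encodes PUMA, a protein that releases BAX from its inhibitors, had 2.50 and 3.12 CPM against 2.92 and 3.60 CPM.

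PERP, a membrane protein of desmosomes and a p53 death effector, had 93.0 and 119 CPM in scramble and 113 and 123 CPM with the mimic. PHLDA3, which blocks the kinase AKT at the membrane, had 10.3 and 18.4 CPM against 14.1 and 14.1 CPM. TP53INP1, a cofactor that favours p53's death programme, had 7.82 and 3.91 CPM against 6.64 and 6.60 CPM. For PHLDA3 and TP53INP1 the miR-146a-5p pair was nearly equal and lay between the scramble libraries. TRIAP1, a small survival protein of the mitochondrion, had between 27.0 and 28.8 CPM in all 4 libraries.

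Of the 4 DNA repair genes, 3 showed no wide gap between the scramble libraries. XPC, which recognises bulky lesions, had 65.5 and 69.5 CPM in scramble and 63.9 and 62.4 CPM with the mimic. DDB2, which detects ultraviolet damage, had 20.8 and 25.4 CPM against 27.6 and 26.2 CPM, and POLH, a polymerase that copies past such damage, had 27.2 and 32.2 CPM against 31.8 and 31.5 CPM. RRM2B, the p53-driven subunit of ribonucleotide reductase that supplies nucleotides for repair, was the exception. It had 48.0 CPM in scramble library 1 and 8.52 CPM in scramble library 2, a 5.64-fold gap and the widest of the 29, against 41.2 and 44.9 CPM with the mimic. Its log2 fold change was 0.61 ± 0.83 (SE, interval -1.65 to 2.86).

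None of the metabolic and redox genes passed the test. SESN1, a sestrin that restrains mTORC1, had 4.65 and 4.48 CPM in scramble and 5.48 and 4.19 CPM with the mimic. TP53I3, a quinone oxidoreductase, had 34.4 and 42.5 CPM against 35.4 and 37.5 CPM. FDXR, ferredoxin reductase of the mitochondrion, had 27.4 and 44.5 CPM against 27.7 and 27.5 CPM, so that scramble library 2 alone was high, with a log2 fold change of -0.38 ± 0.31 (SE, interval -1.21 to 0.44). SPATA18, which takes part in mitochondrial quality control, was near the filter with 29 and 17 counts in scramble and 23 and 23 with the mimic. TIGAR, which diverts glucose into the pentose phosphate pathway, had 23.6 and 10.5 CPM against 15.6 and 15.6 CPM. The authors' TPM of TIGAR were 13.57 and 3.08 in scramble and 2.51 and 6.34 with the mimic, so the miR-146a-5p libraries differed in TPM while their CPM were alike. With whole counts the same was seen in FBXW7 (3.51 and 5.02 TPM with the mimic) and SPATA18 (0.39 and 0.57 TPM). TIGAR is 1 of 8 members whose estimated counts are not whole in at least 1 library, the others being MDM2, FAS, TNFRSF10A, ZMAT3, XPC, POLH and PERP, and the sources used here do not say how reads were divided among genes there.

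**Figure D2:**
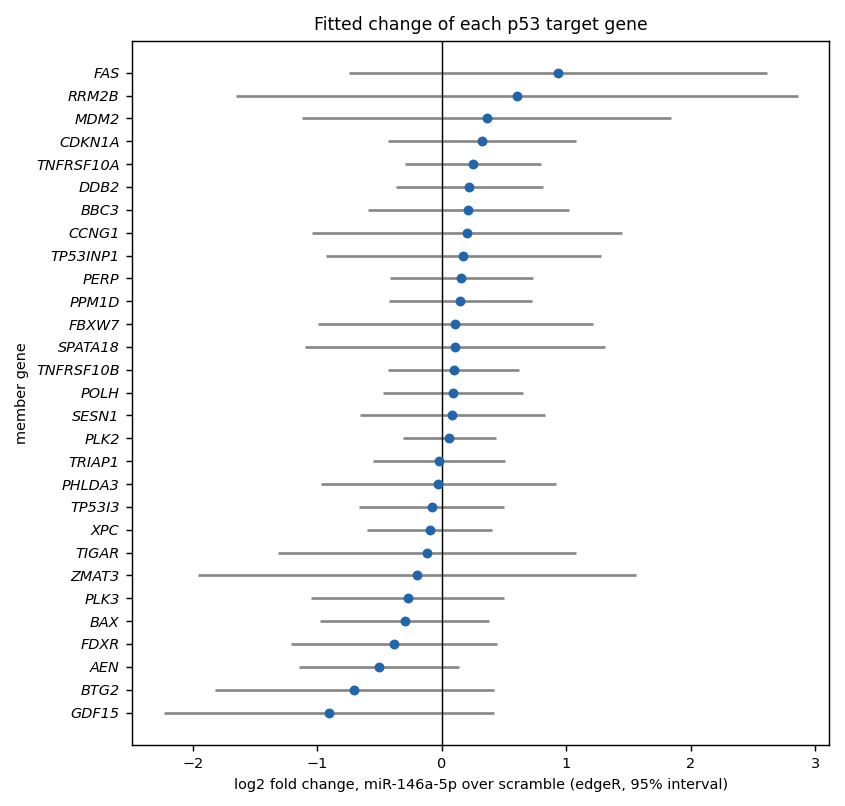
Fitted log2 fold change, miR-146a-5p over scramble, of each of the 29 tested p53 target genes (points) with its 95% interval (lines) from edgeR's quasi-likelihood fit. Every interval crosses 0, from GDF15 at -0.91 to FAS at 0.94, and the widest belong to RRM2B, ZMAT3 and FAS.

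In TPM, the unit in which levels of different genes can be compared, PLK2 (374 to 473 TPM over the 4 libraries) stood above CCNG1 (56.3 to 156 TPM), which was followed by BAX (70.4 to 89.7 TPM), whose range lies within that of CCNG1. TNFRSF10B came next by mean TPM (41.0 to 46.6 TPM), then TRIAP1, TP53I3, FAS, AEN, PERP and MDM2. The range of FAS, 10.9 to 46.7 TPM, spans those of its neighbours in that order from TRIAP1 to PERP. At the low end BTG2 had 0.50 to 0.88 TPM and SPATA18 0.31 to 0.57 TPM. CDKN1A, at 10.5 to 15.6 TPM, lay well below PLK2. Of the 29 genes, 25 were above 1 TPM in every library.

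Against each scramble library alone, the p53 target genes gave different pictures. The comparisons share both miR-146a-5p libraries and are descriptions without a test. Against scramble library 1 the log2 ratio of the mean miR-146a-5p CPM ran from -0.84 (ZMAT3) to 0.64 (CDKN1A) with a median of 0.01, and 3 of the 29 differed by more than 1.5-fold (10.3%, against 16.3% of all tested genes). Against scramble library 2 it ran from -1.37 (GDF15) to 2.34 (RRM2B) with a median of 0.06, and 11 differed by more than 1.5-fold (37.9%, against 39.3%). The direction was opposite for 17 of the 29 (58.6%), and for 52.4% of all tested genes. CCNG1, MDM2, ZMAT3, RRM2B, TP53INP1, TIGAR, FBXW7, PLK2 and SPATA18 lay below scramble library 1 and above scramble library 2. PHLDA3, PLK3, FDXR, TP53I3, TNFRSF10B, TRIAP1, PERP and POLH lay above library 1 and below library 2. Some of these ratios were very small, such as those of PLK2 (-0.011), FDXR (0.0093) and TRIAP1 (0.013) to library 1. That of PERP to library 2 was -0.0053.

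**Figure D3:**
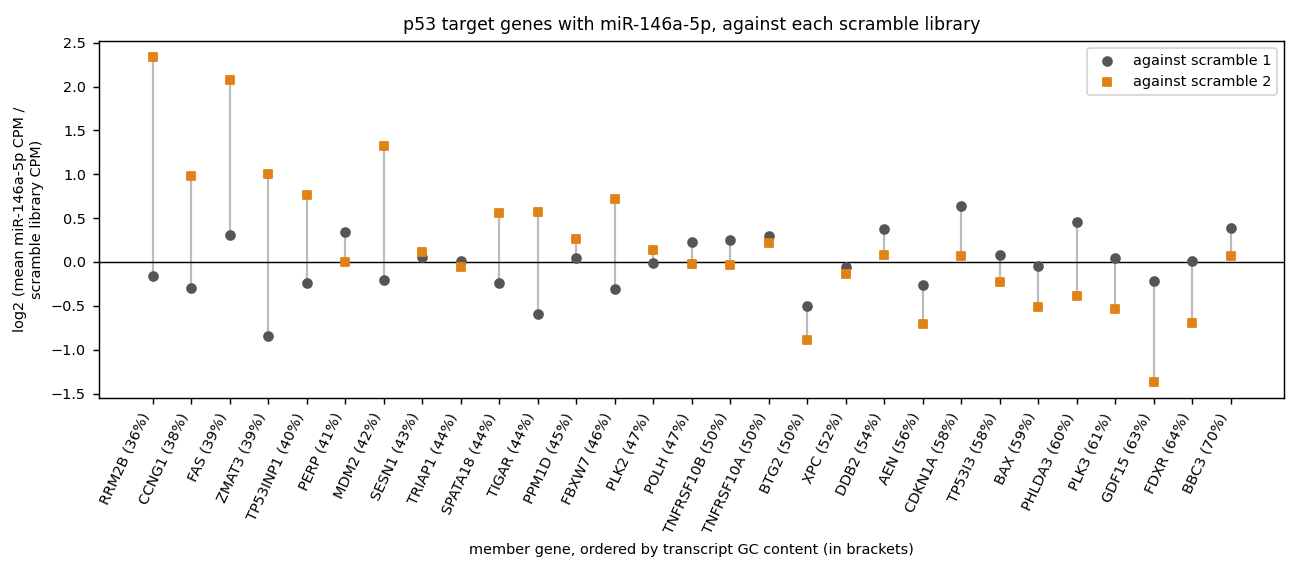
Log2 ratio of the mean miR-146a-5p CPM to the CPM of scramble library 1 (circles) and of scramble library 2 (squares) for each of the 29 tested genes, ordered from low to high transcript GC content, with a line joining the values of one gene. Most GC-poor genes, such as RRM2B (-0.16 and 2.34), sit higher against library 2, and most GC-rich genes such as GDF15 (-0.22 and -1.37) sit lower.

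When edgeR was fitted without scramble library 2, and the remaining scramble library was taken to vary as the miR-146a-5p pair does, 10 of the 29 passed (34.5%), against 22.2% of all tested genes (10.2% higher and 11.9% lower). Those higher were CDKN1A, PHLDA3, PERP, DDB2, FAS and TNFRSF10B, and those lower were ZMAT3, TIGAR, CCNG1 and AEN. CDKN1A had a log2 fold change of 0.65 in that fit and of 0.06 in the fit without scramble library 1. Without scramble library 1, 14 passed (48.3%), against 56.8% of all tested genes, with 8 higher (29.4% of all) and 6 lower (27.4%). Of the 6 genes that passed in both, FAS was higher in both (0.32 and 2.07) and AEN lower in both (-0.26 and -0.71). CCNG1, TIGAR and ZMAT3 were lower against library 1 and higher against library 2, and PHLDA3 was the reverse. The shares by DESeq2 are of the genes to which it gave an adjusted p. Without library 2 it gave none to BBC3, GDF15, BTG2 and SPATA18. By DESeq2 the counts were 1 without library 2 (CCNG1, lower, against 9.64% of genes) and 8 without library 1 (against 38.1%).

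The split between the scramble libraries followed the base composition of the transcripts. Over the 29 genes, the log2 ratio of scramble library 2 to library 1 ran with the GC content of the longest coding transcript (Pearson r = 0.79, Spearman rho = 0.87). Both are across genes, which share the same pair of libraries and are not independent. Across 14595 tested genes r was 0.67. Of the 11 members below 45% GC, 9 were lower in scramble library 2, with a median log2 ratio of -1.16, beside -1.02 over all tested genes below 45%. Of the 18 at or above 45%, 15 were higher there, with a median of 0.31, beside 0.35 over all. PERP, at 41.2% GC, was an exception, with a log2 ratio of 0.35. In the miR-146a-5p pair the corresponding r over the members was 0.08, and 1 of the 29 differed by more than 1.5-fold (BTG2), while 12 did so in the scramble pair, against 8.7% and 40.8% of all tested genes.

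**Figure D4:**
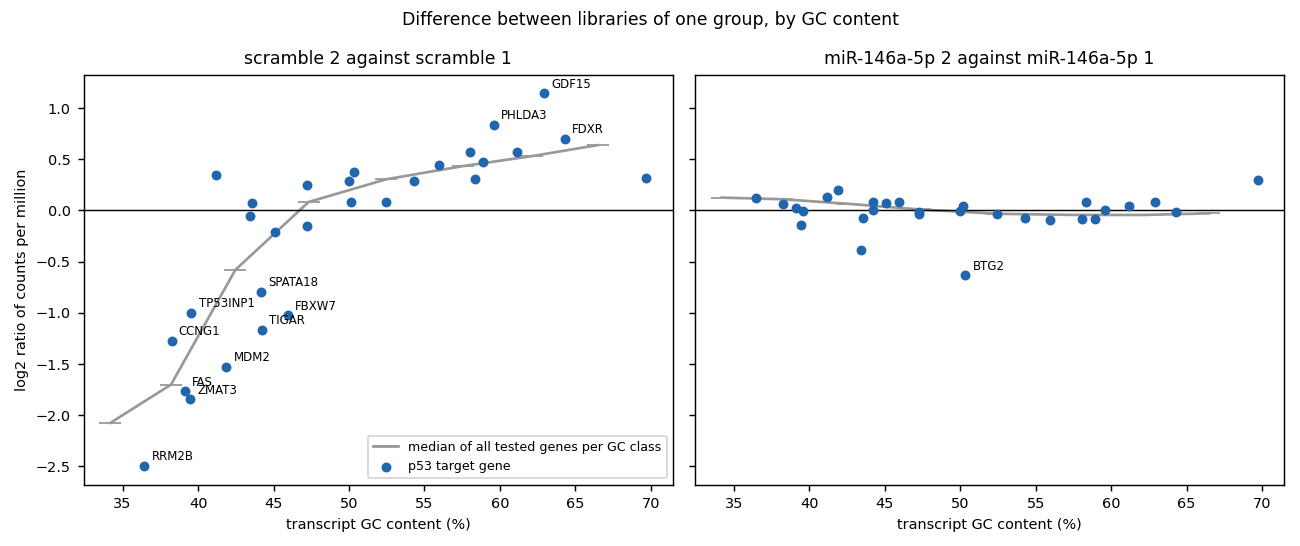
Log2 ratio of CPM between the libraries of one group, scramble on the left and miR-146a-5p on the right, against transcript GC content in percent. GC content is that of each gene's longest coding transcript, or of its longest transcript where none is coding. Points are the 29 p53 target genes and the grey line joins the medians of all tested genes in classes of GC content. On the left RRM2B lies lowest and GDF15 highest, and on the right the points run from BTG2 at -0.63 to BBC3 at 0.30.

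With trends of GC content and transcript length removed from each library, edgeR again called 0 of the 29 and 0 of 14679 genes. At an unadjusted p under 0.05 it had 4 of the 29 (13.8%), against 11.8% of all genes, so the share was near the background. These were CDKN1A (log2 fold change 0.47, edgeR adjusted p = 0.334), FAS (0.66, adjusted p = 0.383), AEN (-0.40, adjusted p = 0.329) and ZMAT3 (-0.48, adjusted p = 0.404). The list median was then -0.02, and 7 members lay above and 8 below both scramble libraries, against 21% and 26.1% of all genes.

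None of the genes that control p53 passed the test. Of 21 listed, 20 were tested, 0 were called by edgeR or DESeq2 and 0 had an unadjusted p under 0.05 by either tool, with 10 fitted changes positive and 10 negative and a median log2 fold change of 0.01. Without scramble library 1 edgeR called 15 of the 20, and without scramble library 2 it called 5, against 56.8% and 22.2% of all tested genes. TP63, which marks basal urothelium, had 0 counts in 3 libraries and 2 counts in miR-146a-5p library 2. MDM4, the partner of MDM2 that masks p53, had 20.5 and 9.53 CPM against 11.98 and 14.9 CPM. CDKN2A, whose ARF product restrains MDM2, had 91.0 and 142 CPM against 92.2 and 84.1 CPM. The smallest p in the list belonged to RCHY1, a p53 ubiquitin ligase also called PIRH2, and to CREBBP, an acetyltransferase. RCHY1 had 16.0 and 4.26 CPM in scramble and 22.6 and 21.98 CPM with the mimic (log2 fold change 1.13 ± 0.67, edgeR adjusted p = 0.970), and CREBBP had 114 and 127 CPM against 92.7 and 103 CPM.

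Further p53 targets outside the 30 were also not called. Of 22 listed, 19 were tested, 0 passed by edgeR or DESeq2, and 1 had an unadjusted p under 0.05 by each. By edgeR 3.71% of all tested genes had such a p. The median log2 fold change of the 19 was 0.13, with 13 positive. Without scramble library 1 edgeR called 7 of the 19, and without scramble library 2 it called 6, against 56.8% and 22.2% of all tested genes. The gene at an unadjusted p under 0.05 was PMAIP1, which encodes NOXA, a protein that neutralises the survival factor MCL1. PMAIP1 had 148 and 79.8 CPM in scramble and 237 and 245 CPM with the mimic, above both scramble libraries, a 2.11-fold difference in means (log2 fold change 1.08 ± 0.35, edgeR adjusted p = 0.970, DESeq2 adjusted p = 1.00). Both miR-146a-5p libraries lay above both scramble libraries in 18% of all tested genes. The log2 fold change of PMAIP1 was 0.71 without scramble library 2 and 1.59 without scramble library 1. With trends of GC content and length removed it was 0.49 (edgeR adjusted p = 0.486), and 0.52 with the replicate number as a block as well. STEAP3, a metalloreductase, had 40.01 and 57.0 CPM against 34.1 and 35.4 CPM. SESN2, singled out after its values were seen, was listed at 0 counts in scramble library 1 and at 260.53, 273.0 and 178.43 in the other libraries. Its estimated counts of 260.53 and 178.43 are not whole. The sources used here do not say how reads were divided among genes there, so the 0 may not be its level.

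The p53 element itself was sought in the promoters of the 30 genes, from 250 bases before to 50 bases after the start in RefSeq (GRCh38.p14), as the p53 consensus half-site, which is its own reverse complement, and as a pair of half-sites at most 13 bases apart. RefSeq's table matched 25 of the 30. A half-site was found for 6 of the 25 (24%), against 8.06% of 27305 promoters of the same length, namely AEN, DDB2, FAS, FDXR, PLK2 and SESN1. A pair was found for 1, DDB2, just after its start on the plus strand, and it is shown with the half-sites in capitals because it is the 1 pair found in these windows. Of all 27305 promoters, 10 held a pair (0.0366%). A match is a description of the sequence, and binding was not measured. The genes were chosen as known p53 targets, so their higher share of half-sites is no independent support. Elements outside these windows were not sought.
DDB2, chr11:47214979-47214999, plus strand: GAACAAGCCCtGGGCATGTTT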

How the data were processed

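Per the submitters' processing notes, the build was hg19 and the tools were DESeq2 (no version), HTSeq 0.6.1, HISAT2 2.0.1 and cutadapt 1.9.1, in no stated order. The deposited table gives an estimated count and a TPM per gene and library, made by the authors, and among genes with counts in each of the 4 libraries 34.3% of values were fractional. Per the file headers it also holds the authors' fold change (a ratio), its log2 and a p-value from DESeq2. Counts were rounded and tested with edgeR 4.0.16 (R 4.3.3): TMM factors, filterByExpr (count at least 10, total at least 15), a two-sided quasi-likelihood test and Benjamini-Hochberg adjustment over all 14810 tested genes, at a threshold of 0.05. DESeq2 1.42.0 was an alternative. CPM are estimated counts divided by the library total and multiplied by 1000000.

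The members and lists were chosen with earlier results of these data known. Every tested member has its values printed, with fit statistics for the 3 largest fitted increases and decreases and for CDKN1A, MDM2 and FAS. Those of FDXR and PLK2 were printed in addition to that rule. Of the other p53 lists, MDM4, CDKN2A and up to 2 genes per list with the smallest edgeR p were named, and 1 further gene of the naming rule is not reported here. GC content is that of the longest coding transcript in GENCODE release 29, or of the longest transcript of genes without a coding one. Coordinates are of GRCh38, and none of the authors' coordinates were used.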

Additional observations from a re-analysis of the deposited data

How the results depend on the processing

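DESeq2 called 52 genes and 0 members. Another normalization, no filter, and offsets for GC content and length left 0 genes and 0 members called by edgeR. Leaving out 1 library, edgeR called 8 to 8413 genes, 0 to 14 members, 0 to 15 control genes and 0 to 7 further targets, with the high counts without scramble library 1 (8413 genes) or 2 (3282 genes, 10 members). DESeq2 without 1 library, an alternative chosen after seeing the data, called 2 to 5349 genes (5349 without scramble library 1 and 1107 without scramble library 2), 0 to 8 members, 0 to 10 control genes and 0 to 5 further targets. A fit that leaves 1 library in a group assumes that it varies like the other group. The share of all genes called by DESeq2 differed between these fits, so its ranges cannot be read against a single background. That share was larger without scramble library 1 than without scramble library 2, while the number of further targets called was the same. The labels do not say that replicate numbers pair the libraries, and same-numbered libraries had a deviation correlation of -0.145. With the replicate number as a block, 5 genes and 0 members were called, and with the pairing crossed, chosen after seeing the data, 0 genes. The members' median log2 fold change was -0.019 with the GC and length offsets, -0.0090 with these and the replicate block, and 0.020 to 0.091 leaving out 1 library. By TPM, 8 members lay above both scramble libraries, but no share over all genes is given for TPM, so this count has no background. After the offsets 8 lay below, against 26.1% of all genes. The median against scramble library 2 was 0.18 by TPM and 0.0016 after the offsets.

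Some genes turned direction, none past the threshold in the fit of all 4 libraries, and the cause was not tested. With the offsets, without and with the replicate block, the log2 fold change was -0.13 and -0.13 for SESN1, 0.048 and 0.049 for TP53I3, -0.26 and -0.25 for TP53INP1, -0.22 and -0.22 for CCNG1, -0.019 and -0.0090 for SPATA18, 0.16 and 0.17 for PHLDA3, and -0.37 and -0.22 for PERP. With the replicate block alone it was 0.065 for ZMAT3 and 0.032 for PHLDA3. By TPM it was -0.090 for FBXW7 and 0.020 for TRIAP1. Leaving out 1 library in turn, it ran from -0.20 to 1.32 for MDM2, -0.041 to 0.26 for TNFRSF10B, -0.12 to 0.27 for SESN1, -0.22 to 0.092 for TP53I3, -0.23 to 0.76 for TP53INP1, -0.00025 to 0.14 for PLK2, -0.53 to 0.051 for PLK3, -0.15 to 2.34 for RRM2B, -0.83 to 1.00 for ZMAT3, -0.69 to 0.020 for FDXR, -0.025 to 0.23 for POLH, -0.58 to 0.58 for TIGAR, -0.28 to 0.98 for CCNG1, -0.30 to 0.71 for FBXW7, -0.22 to 0.56 for SPATA18, -0.39 to 0.46 for PHLDA3, -0.058 to 0.024 for TRIAP1, -0.0068 to 0.35 for PERP and -0.60 to 0.49 for MDM4. Counts limit BBC3, BTG2, GDF15 and SPATA18, which had at most 90 counts in any library.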
